A study of Mus musculus with 21 samples.

Results

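Muscle stem cells that lacked TSC1 in mice with no injury were set against wild-type muscle stem cells from mice with no injury. The members were the arrays of the noninjured TSC1 knockout group and of the noninjured wild-type group, chosen by their labels alone, and they made up 7 of the 21 arrays and 4 of the 12 pools of the series. The wild-type group (WT QSC) held 3 pools on 5 arrays from Pax7CreER/+;Rosa26REYFP/+ mice, and the knockout group (TSC1 KO QSC) held 1 pool on 2 arrays from TSC1flox/flox;Pax7CreER/+;Rosa26REYFP/+ mice. QSC stands for quiescent satellite cell, the resting stem cell of skeletal muscle. All mice were of a mixed C57BL6 background and 3 to 5 months old, and all had received tamoxifen at least 2 weeks earlier. Tamoxifen switches on a Cre recombinase in cells that express Pax7, so the floxed gene is removed and a yellow fluorescent reporter is switched on in the same cells of an otherwise unaltered animal. Each pool held YFP-positive cells sorted from the hindlimb muscles of 3 to 4 mice, with RNA taken straight after the sort and 100 ng of it labelled for an Affymetrix Mouse Gene array. Another pair of noninjured knockout groups, each of 1 pool on 2 arrays, served for comparison: Rptor KO QSC (Rptrflox/flox;Pax7CreER/+;Rosa26REYFP/+, same background) and cMet KO QSC (cMetflox/flox;Pax7CreER/+;Rosa26REYFP/+, in a C57BL6 mixed FVB background). Uninjured-side cells of injured wild-type mice (WT CSC, contralateral satellite cells taken 2.5 days after the injury, 3 pools) entered the fit for its estimate of spread.

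TSC1 and TSC2 form a complex that keeps the small GTPase Rheb in its inactive state, and active Rheb switches on the kinase complex mTORC1. Loss of TSC1 therefore raises mTORC1 activity without the upstream signal, and raptor, the product of Rptor, is the subunit that mTORC1 cannot work without. mTORC1 is known for promoting ribosome production, translation, lipid synthesis and mitochondrial gene expression, and for restraining autophagy and the lysosomal transcription factors of the MiT/TFE family. In muscle stem cells it is known for a step from deep quiescence towards a primed state. The comparison asks what the removal of the brake does to the transcriptome of these cells when no muscle has been injured.

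Signals are given on the log2 scale, on which a difference of 1 is a doubling. Array medians lay between 7.03 and 7.21, and 13956 genes above the dim end of the signal range were tested. Every difference is the TSC1 KO pool (the mean of its 2 arrays) minus the mean of the 3 WT pools, followed by its standard error (SE). The SE rested on the spread of the WT QSC and WT CSC pools, which limma drew towards a value shared by all genes. No spread came from the TSC1 KO group, because it was a single pool. Genotype and pool therefore cannot be told apart in any result below. Over all genes the median difference was 0.04 and the median SE was 0.218. The TSC1 KO pool correlated with WT pool 1 at 0.984 over the genes tested and with WT pools 2 and 3 at 0.952 and 0.954, while the WT pools correlated with one another at 0.966 to 0.972. WT pool 1 thus lay closer to the knockout pool than to the other wild-type pools, and values against it alone are given for the gene lists. The 2 arrays of a pool correlated at 0.994 for TSC1 KO, 0.998 for cMet KO and 0.982 for Rptor KO. The last was the lowest of the noninjured pools with 2 arrays, and the Rptor KO values below are means of those arrays. The labelled cell type was borne out by its markers: Pax7, the transcription factor that defines satellite cells, read 12.02 and 12.15 on the TSC1 KO arrays and 12.10, 11.30 and 11.09 in the WT pools, and Vcam1 read 12.64 and 12.66 against 12.41, 12.53 and 12.45.

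The genotype itself could be followed only in part. The signal of Tsc1 was 8.14 and 8.18 on the knockout arrays and 8.66, 8.34 and 8.69 in the WT pools, and the difference of -0.40 ± 0.24 did not pass the threshold (limma, Benjamini-Hochberg adjusted p = 0.641). The knockout arrays lay below the WT pools without a gap beyond their spread. The probe set sums probes along the transcript, and the floxed exons were not given in the sources used here, so this value checks nothing about the label. Tsc2, the GTPase-activating partner, had a difference of 0.73 ± 0.35, and Rheb, the GTPase that the complex restrains, had a difference of -0.16 ± 0.32. Neither passed.

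At an adjusted p of 0.05, 2 genes were higher in the TSC1 KO pool and 0 were lower (limma; 0.0143% of the genes tested), and at an unadjusted p under 0.05 1231 genes stood out (8.82%), 987 higher (7.07%) and 244 lower (1.75%). The split moved to 1333 higher and 108 lower when every array was centred on its median, which moved the median difference of all genes to 0.14. Cox8b, which encodes the heart and skeletal muscle form of a small subunit of cytochrome c oxidase, read 12.06 and 11.82 on the TSC1 KO arrays and 8.02, 7.64 and 7.96 in the WT pools. The groups were far apart: Cox8b rose by 4.07 ± 0.21, a 16.9-fold increase (adjusted p = 1.36e-04), and it stood 3.93 above WT pool 1 alone. Ryr3, which encodes a ryanodine receptor, a calcium release channel of the sarcoplasmic reticulum, read 9.69 and 9.81 against 7.92, 7.59 and 7.36. Ryr3 rose by 2.13 ± 0.23, a 4.38-fold increase (limma, adjusted p = 0.0485). Both knockout arrays lay above every WT array for Ryr3, as they did for 16.8% of all genes. That position was also a condition for naming a gene that passed. The call of Cox8b held in all 19 alternative settings tried (adjusted p at most 0.0104), and that of Ryr3 in 9 of 19, with adjusted p up to 0.352 in the others. Leaving out WT pool 1 took the number of genes past the threshold from 2 to 231, of which 211 were higher, while leaving out WT pool 2 or WT pool 3 gave 1 and 2, and leaving out any 1 of the WT CSC pools gave 1.

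Cox8b and the muscle deaminase gene Apobec2 carry the E-box hexamer CAGCTG close to their start sites, a motif that myogenic factors are known to bind, and their upstream sequences are shown for that reason. They are the 250 bases before the RefSeq start (GRCm38.p6), chr7:140900447-140900696 and chr17:48432729-48432978, both read from the minus strand, with the hexamer in capitals.
Cox8b: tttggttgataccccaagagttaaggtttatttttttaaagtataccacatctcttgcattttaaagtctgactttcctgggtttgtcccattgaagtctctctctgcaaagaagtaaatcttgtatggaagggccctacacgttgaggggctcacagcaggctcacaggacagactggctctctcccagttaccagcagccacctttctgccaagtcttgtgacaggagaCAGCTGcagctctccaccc
Apobec2: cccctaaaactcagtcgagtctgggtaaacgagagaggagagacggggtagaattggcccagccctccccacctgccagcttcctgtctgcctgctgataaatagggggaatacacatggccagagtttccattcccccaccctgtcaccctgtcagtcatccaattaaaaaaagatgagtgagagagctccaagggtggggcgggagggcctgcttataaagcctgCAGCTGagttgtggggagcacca
The first base of CAGCTG lay at -19 in Cox8b and at -23 in Apobec2, counted back from the start. Of the 10 higher genes named here, 8 had an upstream sequence in the table, and 4 of them (Apobec2, Cox8b, Inmt and Prss23) held CAGCTG. Of the 10 lower genes 7 had one, and 2 of them (Cmss1 and Glis3) held it. The hexamer reads the same on both strands and was present in 13% of 32851 upstream sequences of the same length. The hexamer CACGTG, present in 6.02% of all, and AAGGTCA, the half-site of estrogen-related receptors, present in 4.08% on either strand, were in none of the 15 genes with a sequence among the 10 highest and the 10 lowest. The MEF2 site, present in 2.92% of all on either strand, was in 1 of the 15, Prss23. A match is a description of the letters and not a bound site.

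**Figure D1:**
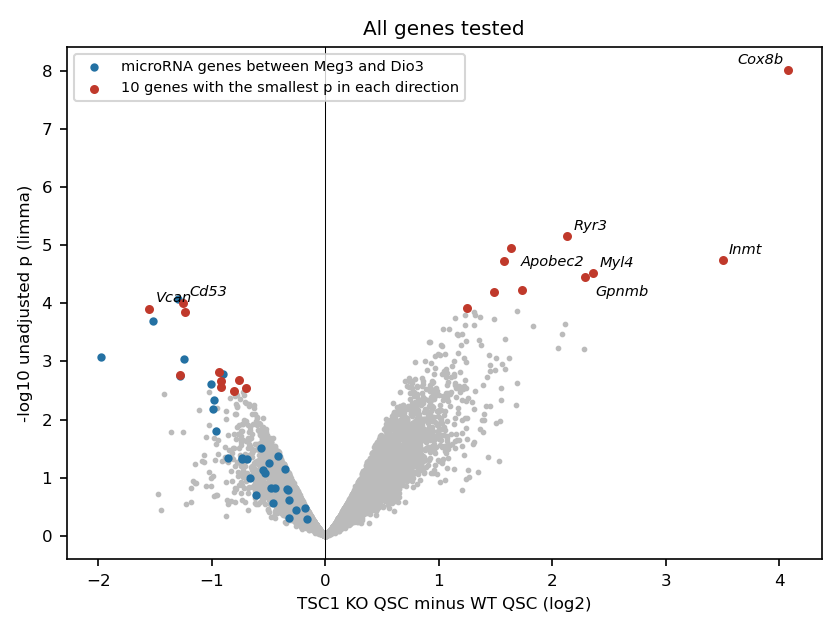
Each grey point is 1 of the 13956 genes tested, with the difference between TSC1 KO QSC and the WT QSC mean (log2) on the x axis and -log10 of the unadjusted limma p on the y axis. Red points are the 10 genes with the smallest p in each direction, with predicted genes, microRNAs and receptors of smell left out. Blue points are the 32 microRNA genes between Meg3 and Dio3, all of which lie below 0. Cox8b stands alone at 4.07.

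The 8 genes that follow in order of p among those higher in the TSC1 KO pool did not pass, with adjusted p from 0.0512 to 0.123 (limma). Predicted genes, microRNAs and receptors of smell were left out of this order. Both knockout arrays lay above every WT array in each of the 8, a position that follows largely from ranking them by p on the same arrays. Over all genes, both arrays lay above every WT array in 2348, or 16.8%. Inmt, which encodes an indolethylamine N-methyltransferase, read 11.05 and 10.91 against 8.28, 7.30 and 6.87, a difference of 3.50 ± 0.43 (adjusted p = 0.0512). WT pool 1 was the highest of the wild-type pools for Inmt, and the difference from it was 2.71. Apobec2, which encodes a cytidine deaminase family member found in heart and skeletal muscle, read 8.89 and 9.05 against 7.50, 7.17 and 7.33, a difference of 1.63 ± 0.19 (adjusted p = 0.0512). Slc25a35, a member of the mitochondrial carrier family, read 8.28 and 8.35 against 6.80, 6.61 and 6.81, a difference of 1.57 ± 0.19 with the same adjusted p. The WT pools were closely grouped for both of these genes. Myl4, the embryonic and atrial myosin light chain, had a difference of 2.36 ± 0.31 (adjusted p = 0.0705), and in WT CSC it was 1.20 above WT QSC. Gpnmb, a transmembrane glycoprotein of lysosomes and melanosomes, had a difference of 2.29 ± 0.30 (adjusted p = 0.0705). Gpnmb was also high where raptor was removed: it read 11.76 and 11.72 in TSC1 KO, 11.76 in the Rptor KO pool and 9.99 in the cMet KO pool, against 9.88, 9.37 and 9.10 in WT. Camk2b, a calcium and calmodulin dependent kinase subunit, Prss23, a serine protease, and Lrrn1, a leucine-rich repeat membrane protein, had differences of 1.73, 1.48 and 1.25. All 10 higher genes, Cox8b and Ryr3 included, passed when WT pool 1 was left out. Cox8b alone of the 10 passed when WT pool 2 or WT pool 3 was left out.

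In the other direction no gene passed. With predicted genes, microRNAs and receptors of smell left out, the 10 genes with the smallest p had adjusted p from 0.123 to 0.347 (limma). Of the microRNA genes left out, described below, the smallest adjusted p was 0.118. Both knockout arrays lay below every WT array in all 10, as they did in 1531 genes, or 11%, of those tested. For the 10 this position follows largely from ranking them by p on the same arrays. Cd53, a tetraspanin of white blood cells, read 6.09 and 6.17 on the knockout arrays and 7.21, 7.55 and 7.37 in the WT pools, a difference of -1.25 ± 0.19. Vcan, which encodes the matrix proteoglycan versican, read 7.08 and 7.50 against 8.49, 9.05 and 8.98, a difference of -1.55 ± 0.24. Nos1, the neuronal nitric oxide synthase, read 7.85 and 8.04 against 9.18, 9.25 and 9.12, a difference of -1.24 ± 0.20. These were well separated from the wild-type pools, with WT pool 1 the lowest of the WT pools for Cd53 and Vcan. The other members were H2-Ab1 (-0.93), a class II histocompatibility chain, Ttyh1 (-1.28), a membrane protein of the tweety family, Cmss1 (-0.76), Sorcs2 (-0.92), a sorting receptor, Npy (-0.92), the gene of neuropeptide Y, Glis3 (-0.70), a zinc finger factor, and Pde3b (-0.81), a phosphodiesterase. In the contralateral cells Vcan was 1.68 and Cmss1 0.76 above WT QSC.

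**Figure D2:**
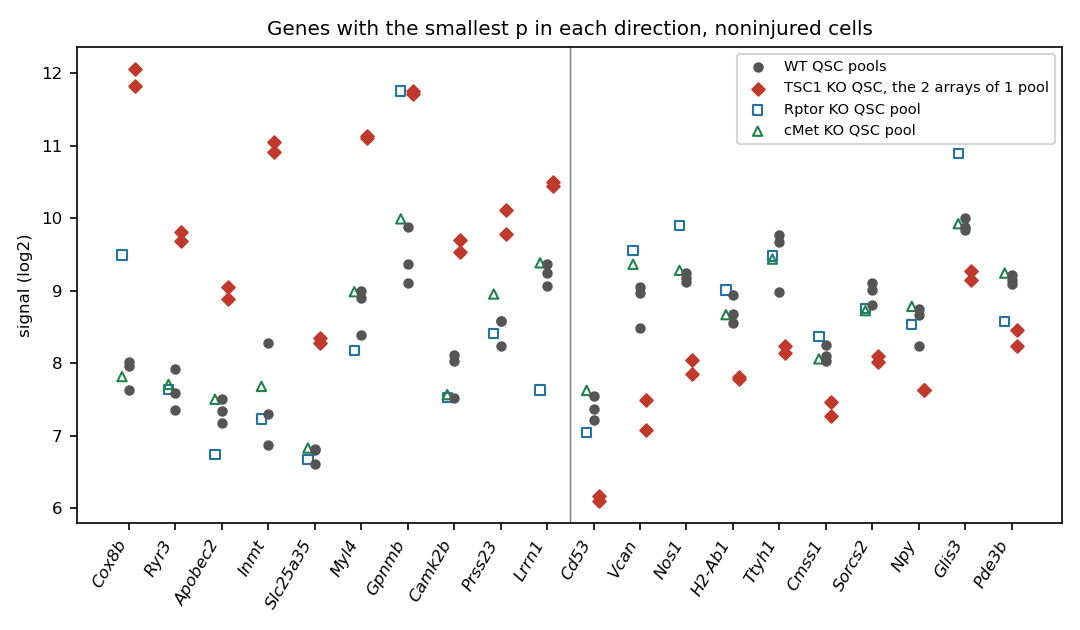
The signal (log2) of the 10 genes with the smallest p among those higher in TSC1 KO QSC (left of the line) and the 10 among those lower (right) is shown for each WT QSC pool (grey), the 2 arrays of the TSC1 KO pool (red) and the Rptor KO and cMet KO pools (open). Predicted genes, microRNAs and receptors of smell were left out of the ranking. The red points lie outside the grey ones for all 20 genes, which were ranked on these same arrays. The Rptor KO pool lies level with the TSC1 KO pool at Gpnmb and close to it at Pde3b.

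The TSC1 KO pool was next set against the mean of the other noninjured knockout pools, which share no sample with WT QSC but are each 1 pool. The TSC1 KO pool is the same in both comparisons, so a gene extreme in it tends to stand out in both. Passing here is therefore no separate support for the genes named above. In this comparison 21 genes passed (0.150%), 16 higher (0.115%) and 5 lower (0.0358%). Only 1 passed when any 1 of the WT CSC pools was left out of the estimate of spread, and 237, 125 and 38 passed without WT QSC pools 1, 2 and 3. Cox8b was higher by 3.29 ± 0.22 (adjusted p = 0.00148) and Ryr3 by 2.08 ± 0.25 (adjusted p = 0.0324). Cox8b read 9.49 in the Rptor KO pool and 7.81 in the cMet KO pool, so the Rptor KO pool lay above wild type and below TSC1 KO. Of the other 8 higher genes 6 passed here: Lrrn1, Apobec2, Camk2b, Myl4, Inmt and Slc25a35, with differences from 1.56 to 3.53. Gpnmb and Prss23 did not (0.86 ± 0.32 and 1.27 ± 0.22). Ndufab1 and Ndufs5, both complex I subunits, were higher by 1.38 and 1.49, Mrpl42 of the mitochondrial ribosome by 1.61, Sec11c of the signal peptidase by 1.43 and Klhl33 by 1.55. The cell cycle genes Ccna2, Mki67 and Anln also passed here, by 1.45, 1.46 and 1.28, but their values turned on the Rptor KO pool: Mki67 read 6.95 there and 9.42 in the cMet KO pool, against 9.64 on both TSC1 KO arrays. Lrrn1 read 7.63 in Rptor KO and 9.39 in cMet KO, so that its difference of 1.97 was 1.09 against the cMet KO pool alone. Against that pool alone the difference was smaller by over 1.5 times for 7 of the 21 genes: Ccna2, Mki67, Anln, Lrrn1, Klhl33, Mir134 and Mir485. Vcan fell by 2.17 and Nos1 fell by 1.65 relative to these pools, and the other 3 genes that fell, Mir485, Mir377 and Mir134, are described with their cluster below. Both TSC1 KO arrays lay above every WT QSC array for the 16 higher genes and below every one for the 5 lower genes, as they did for 16.8% and 11% of all genes. These 21 genes were called on values of the same TSC1 KO arrays, so their position is no separate support.

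Among the genes of the mTORC1 pathway, the kinase complex itself gave small differences. Of 10 tested subunits and assembly factors of mTORC1 and mTORC2, 0 had an unadjusted p under 0.05, and the median difference was 0.23, or -0.04 against WT pool 1 alone. Mtor, the kinase, had a difference of 0.31 ± 0.32, Rptor of 0.14 ± 0.27, and Deptor, an inhibitory subunit, of 0.51 ± 0.29. The machinery that reports amino acids to mTORC1 at the lysosome stood higher: of 26 genes tested, 21 lay above 0 (56.3% of all genes did), 7 of them at an unadjusted p under 0.05 (7.07% of all genes), and the median was 0.36. Against WT pool 1 alone the median was 0.21, with 18 genes above it. Rragc, a Rag GTPase, read 9.33 and 9.59 against 8.75, 8.66 and 8.75, a difference of 0.74 ± 0.17 (adjusted p = 0.324). Sesn3 and Sesn1, members of the sestrin family that restrain mTORC1, had differences of 1.04 ± 0.27 and 0.86 ± 0.27, and Lamtor4, a subunit of the Ragulator scaffold, one of 0.70 ± 0.21. Slc38a9, the lysosomal arginine sensor, and Rragd had differences of 0.77 and 0.56. Sesn2, a further sestrin, and Depdc5 of the GATOR complex had differences of 0.06 ± 0.35 and 0.23 ± 0.27. Of 21 genes of inputs and feedback, 0 had an unadjusted p under 0.05 (median 0.14, and -0.01 against WT pool 1), and of 24 autophagy genes 2 did (median 0.12, and 0.02 against WT pool 1). The 2 autophagy genes were higher, a share close to the 7.07% of all genes.

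Nuclear genes of the respiratory chain lay higher in the TSC1 KO pool as a group. Of 35 complex I genes tested, 34 lay above 0 against 56.3% of all genes, and the median difference was 0.49. At an unadjusted p under 0.05, 20 were higher and 0 were lower, against 7.07% and 1.75% of all genes. The mean signal of the list was 9.80 and 9.83 on the knockout arrays and 9.32, 9.11 and 9.24 in the WT pools. The difference held against WT pool 1 alone, with a median of 0.45 and 34 genes above it. Ndufab1, the acyl carrier subunit, read 9.98 and 10.14 against 9.17, 8.89 and 9.0, a difference of 1.04 ± 0.18 (adjusted p = 0.137). Ndufs5 (1.00), Ndufs8 (1.05), Ndufa1 (1.19), Ndufc1 (1.14) and Ndufb8 (1.10), all subunits of the same complex, were alike in size. None of them passed over all genes tested.

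Of 40 genes of complexes II to V, 38 lay above 0, 16 of them at an unadjusted p under 0.05, with a median of 0.41 (0.42 against WT pool 1). Cox7a1, the heart and muscle form of another cytochrome c oxidase subunit, read 8.38 and 8.18 against 7.61, 7.21 and 7.65, a difference of 0.79 ± 0.22. Its size was that of the general subunits: Cyc1, cytochrome c1, had a difference of 0.76, Atp5g1, a subunit c gene of ATP synthase, 0.83, and Uqcr10 of complex III 0.65. Cox8a, the general counterpart of Cox8b, had a difference of 0.49 ± 0.24, and Cox6a2, a further muscle form, of 0.12 ± 0.18. The rise of Cox8b was thus not shared by these related genes at its size. Of 21 genes of the tricarboxylic acid cycle, 20 lay above 0 and 6 had an unadjusted p under 0.05 (median 0.37, and 0.32 against WT pool 1), with Idh2 at 0.66 and Dlat at 0.54. Of 75 genes of the mitochondrial ribosome, 61 lay above 0 and 9 had an unadjusted p under 0.05 (median 0.25, and 0.22 against WT pool 1). Over all genes, 56.3% lay above 0 and 7.07% were higher at an unadjusted p under 0.05.

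Among the regulators of mitochondrial biogenesis, Ppargc1a had the largest difference. Ppargc1a, which encodes PGC-1alpha, read 10.13 and 10.14 on the knockout arrays and 8.37, 8.05 and 7.65 in the WT pools, a difference of 2.11 ± 0.36 (adjusted p = 0.130). It stood 1.77 above WT pool 1 and 1.93 above the other knockout pools. Ppargc1b, its close relative, had a difference of 0.89 ± 0.33, while Pprc1, the remaining member of that coactivator family, had one of -0.15 ± 0.36. Tfb1m, a mitochondrial RNA methyltransferase, was the other gene at an unadjusted p under 0.05, at 0.57 ± 0.25. Of the 19 genes of this list 10 lay above 0 and 9 below, with a median of 0.00 (0.04 against WT pool 1).

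In WT CSC the medians of complex I, complexes II to V, the tricarboxylic acid cycle and the mitochondrial ribosome stood 0.51, 0.56, 0.48 and 0.73 above WT QSC, values that share the WT QSC pools with the TSC1 comparison and are given side by side only. Ppargc1a did not follow these lists there, at -0.38, and neither did Cox8b, at -0.60, or Ryr3, at -0.65.

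**Figure D3:**
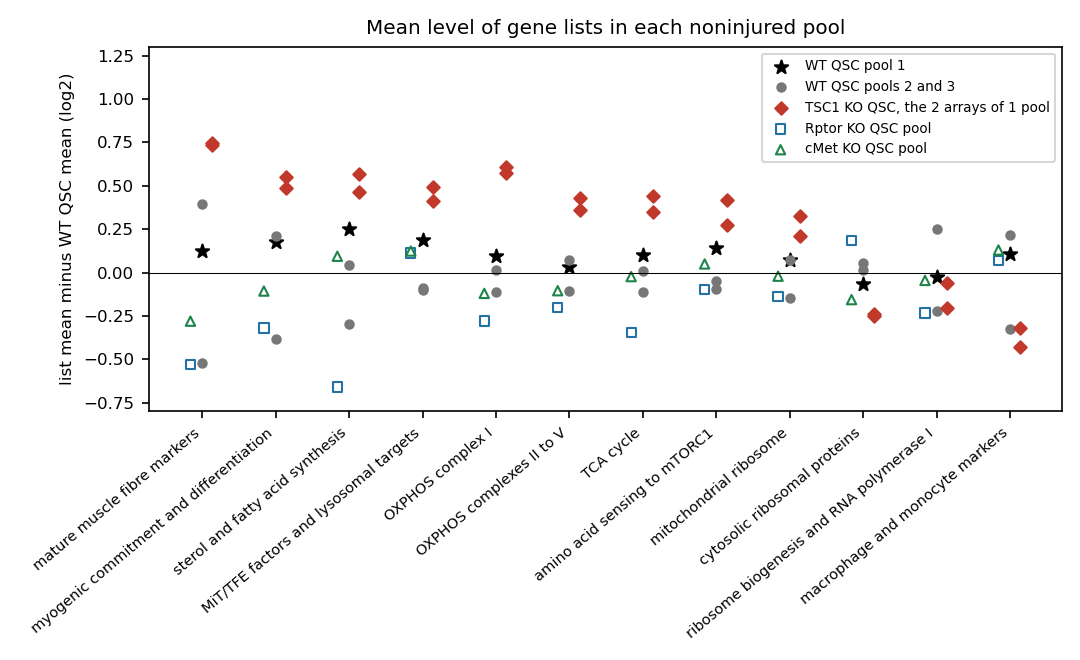
For 12 gene lists the mean signal of the tested members is shown in each noninjured pool as the distance from the WT QSC mean (log2). The TSC1 KO arrays (red) lie above every WT QSC pool in the first 9 lists and below every one for cytosolic ribosomal proteins, and the nearest WT QSC pool is pool 1 (star) or pool 3 in those lists.

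Sterol and fatty acid synthesis, a known output of mTORC1 through SREBP factors, separated the knockout pools. Of 32 genes tested, 31 lay above 0, 7 had an unadjusted p under 0.05 and were higher, against 56.3% and 7.07% of all genes, and the median difference was 0.55. The mean signal was 10.10 and 10.20 on the TSC1 KO arrays, 9.88, 9.67 and 9.33 in the WT pools, 8.97 in the Rptor KO pool and 9.72 in the cMet KO pool. The TSC1 KO and Rptor KO pools thus lay at the opposite ends, and the order of the WT pools put WT pool 1 highest, with a median difference of 0.25 against it. Scd2, a stearoyl-CoA desaturase, read 12.11 and 12.08 against 11.40, 10.64 and 10.47 in WT and 9.87 in Rptor KO, a difference from WT of 1.26 ± 0.33 (adjusted p = 0.369). Nsdhl, a sterol dehydrogenase, read 9.76 and 9.90 against 9.10, 8.96 and 8.66, and 7.79 in Rptor KO, a difference from WT of 0.93 ± 0.22. Mvk and Mvd of the mevalonate pathway had differences of 0.70 and 0.68, and Elovl6, a fatty acid elongase, of 0.89. Srebf1, the gene of SREBP-1, had a difference of 0.19 ± 0.22 and Fasn, fatty acid synthase, of 0.29 ± 0.31.

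The MiT/TFE factors and their lysosomal targets also lay higher. Of 38 genes tested, 35 lay above 0 (56.3% of all genes did), and 14 were higher and 1 was lower at an unadjusted p under 0.05 (7.07% and 1.75% of all genes). The median difference was 0.51, and 0.27 against WT pool 1. Besides Gpnmb, the leading genes encode lysosomal hydrolases. Tpp1, a tripeptidyl peptidase, read 10.18 and 10.28 against 9.47, 8.92 and 8.75, a difference of 1.18 ± 0.29 (adjusted p = 0.335). Lipa, the acid lipase, had a difference of 0.86 and Hexa, a hexosaminidase subunit, of 0.77. Lamp1, a membrane protein of the lysosome, had 0.53, and Atp6v0d1 of the proton pump 0.74. The 3 genes below 0 were Ctss, a cathepsin of immune cells, at -0.87 ± 0.25, Ctsk, another cathepsin, at -0.26 ± 0.19, and Tfeb at -0.02 ± 0.19. Of the other factors of the family, Mitf had a difference of 0.56 ± 0.26 and Tfe3 of 0.08 ± 0.18.

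Ribosomal genes lay on the other side of 0. Of 54 cytosolic ribosomal protein genes tested, 48 lay below 0 against 43.7% of all genes. In 30 of them both knockout arrays lay below every WT array, as they did in 11% of all genes. An unadjusted p under 0.05 was found for 5, all lower (1.75% of all genes were). The median difference was -0.23, with a range of -0.87 (Rpl12) to 0.09 (Rps29), and it was -0.17 against WT pool 1 and -0.14 with every array centred on its median. The mean signal was 11.87 and 11.89 on the knockout arrays, 12.06, 12.17 and 12.14 in the WT pools and 12.31 in the Rptor KO pool. Rpsa read 11.78 and 11.79 against 12.31, 12.41 and 12.53, a difference of -0.63 ± 0.18 (adjusted p = 0.400), and Rps10, Rps3 and Rpl36 had differences of -0.52, -0.54 and -0.45. Rpl12, the lowest, read 8.61 and 8.86 against 9.40, 9.55 and 9.86, but its SE was 0.70. All of these differences were under 1 in log2. Ribosome biogenesis and RNA polymerase I genes had a median of -0.15 over 47 genes (-0.14 against WT pool 1), with 1 at an unadjusted p under 0.05 (Nop16, a nucleolar protein, at -0.70), and in WT CSC the same genes had a median of 0.44. Translation factors had a median of -0.08 over 29 genes, tRNA synthetases one of -0.06 over 18, and ATF4 targets, which mTORC1 is known to induce, one of -0.08 over 27. Against WT pool 1 these medians were -0.06, -0.07 and -0.08.

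Glycolysis genes had a median of 0.23 over 17 genes, but against WT pool 1 the median was -0.03. At an unadjusted p under 0.05, 5 were higher and 0 lower, against 7.07% and 1.75% of all genes. Pgam1 and Pfkm, a mutase and the muscle phosphofructokinase, had differences of 0.79 ± 0.30 and 0.68 ± 0.28 from the WT mean and of 0.31 and 0.19 from WT pool 1. The median of the hypoxia targets was 0.10 over 18 genes and that of the proteasome 0.10 over 31 (-0.05 and 0.25 against WT pool 1).

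**Figure D4:**
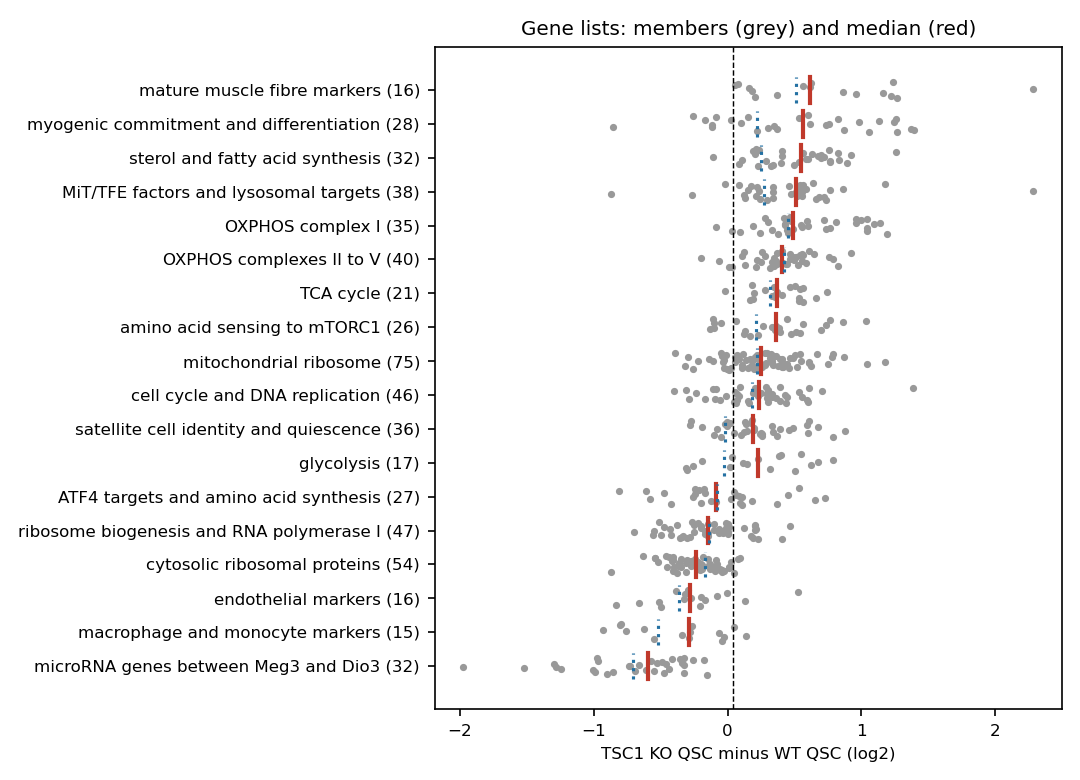
Each grey point is the difference of 1 gene between TSC1 KO QSC and the WT QSC mean (log2), by gene list with the number tested in brackets. The red bar is the list's median, the blue dotted bar is its median against WT QSC pool 1 alone, and the dashed line is the median of all genes, 0.04. The medians run from 0.62 for mature fibre markers to -0.59 for the microRNA genes between Meg3 and Dio3.

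Genes of the myogenic program and of mature fibres lay higher in the knockout pool. Of 28 genes of commitment and differentiation, 22 lay above 0 (56.3% of all genes did), and 8 were higher and 1 was lower at an unadjusted p under 0.05 (7.07% and 1.75% of all genes). The median was 0.57, and 0.22 against WT pool 1. Ckb, the brain form of creatine kinase, read 11.12 and 11.23 against 9.91, 9.59 and 9.92, a difference of 1.37 ± 0.22 (adjusted p = 0.124). Myh8, the perinatal myosin heavy chain, read 8.29 and 8.40 against 7.07, 6.83 and 7.39, a difference of 1.24 ± 0.23, and Cdh2, N-cadherin, had one of 1.39 ± 0.34. Both arrays lay above the WT pools for each of these. Of the myogenic factors, Myod1 had a difference of 0.03 ± 0.34. Myog read 10.62 and 10.86 against 9.77, 8.35 and 10.33, above every WT pool, but the WT pools were far apart and the difference was 1.26 ± 0.62. Of the 19 mature fibre markers measured, 16 were bright enough to test. All 16 lay above 0 (median 0.62, and 0.51 against WT pool 1), and 6 had an unadjusted p under 0.05, against 56.3% and 7.07% of all genes.

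The mature fibre list had a mean signal of 8.95 and 8.97 on the TSC1 KO arrays, 8.34, 7.69 and 8.61 in the WT pools, 7.69 in Rptor KO and 7.94 in cMet KO. Mb, the gene of myoglobin, read 8.81 and 8.70 against 7.49, 7.41 and 7.86, a difference of 1.17 ± 0.21 (adjusted p = 0.151), and Myl1, a fast myosin light chain, had one of 2.28 ± 0.44. Other fibre genes overlapped or nearly met the WT pools: Acta1, skeletal actin, read 11.73 and 11.77 against 10.73, 9.16 and 11.56, and Ckm, the muscle creatine kinase, read 8.81 and 8.78 against 8.64, 7.67 and 8.98. Cox8b, Myl4, Apobec2 and Mb are all genes of muscle fibres as well, and the part of fibre RNA in their values was not tested. In WT pool 3, the highest of the WT pools for Acta1, Ckm and Ttn (Ttn at 9.26 against 9.29 and 9.38 on the knockout arrays), Cox8b read 7.96 and Apobec2 7.33, each the middle value of the WT pools, while Myl4 read 8.99 and Mb 7.86, each the highest. In bulk samples a change in RNA per cell and a change in the number of cells of a type cannot be told apart.

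Satellite cell identity genes lay close to the wild-type pools. Of 36 genes of identity and quiescence, 27 lay above 0 (56.3% of all genes did), and the median was 0.19. Only 3 had an unadjusted p under 0.05, all higher, a share close to the 7.07% of all genes. They were Cd34, Fgfr4 and Hes1, with differences of 0.79, 0.60 and 0.88. Against WT pool 1 the median was -0.02, with 16 genes above it. Pax7 had a difference of 0.60 ± 0.35 (adjusted p = 0.631). In WT CSC the same list had a median of -0.52. Cell cycle and DNA replication genes had a median of 0.24 over 46 genes (0.19 against WT pool 1), and in WT CSC the median was 1.61. At an unadjusted p under 0.05, 8 were higher and 0 lower in the TSC1 KO pool, against 7.07% and 1.75% of all genes. Rrm2, a ribonucleotide reductase subunit, read 9.99 and 10.39 against 9.56, 7.98 and 8.86 in WT QSC, a difference of 1.39 ± 0.47, and its mean was 11.16 in WT CSC. Plk1, a mitotic kinase, read 7.83 and 8.15 against 7.62, 6.84 and 7.39, and its mean was 10.27 in WT CSC. The knockout arrays thus lay above every WT QSC pool and below the WT CSC mean for both genes.

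Markers of other cells were checked as lists. Of 15 tested macrophage and monocyte markers, 13 lay below 0 (43.7% of all genes did), and 4 had an unadjusted p under 0.05, all lower (1.75% of all genes were). The 4 were H2-Ab1, Ptprc, H2-Eb1 and H2-Aa, with differences of -0.93, -0.79, -0.63 and -0.76. The median of the list was -0.29, and -0.52 against WT pool 1. The mean signal of the list was 7.42 and 7.53 on the knockout arrays and 7.95, 7.52 and 8.06 in the WT pools, so that WT pool 2 met the knockout arrays. Cd53 and Ctss, named above, are expressed in the same cells, and the part of such cells in their values was not tested. Endothelial markers had a median of -0.28 over 16 genes (-0.36 against WT pool 1), with mean signals of 8.61 and 8.72 on the knockout arrays and 8.98, 8.55 and 9.22 in WT. Fibro-adipogenic progenitor markers had a median of -0.07 over 12 genes (-0.25 against WT pool 1). Pericyte and smooth muscle markers had a median of 0.15 over 12 genes (-0.04 against WT pool 1), but Abcc9, a regulatory subunit of a potassium channel, read 11.06 and 11.20 against 9.66, 8.46 and 8.99, a difference of 2.09 ± 0.37 (adjusted p = 0.151). Its channel partner Kcnj8 had a difference of 0.87 ± 0.29, while the pericyte gene Rgs5 had one of -0.29. Lymphocyte, neutrophil, Schwann and erythroid lists had 3, 5, 5 and 2 genes bright enough to test, with medians of -0.20, -0.19, -0.21 and -0.14 (-0.17, -0.02, -0.24 and -0.07 against WT pool 1).

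MicroRNA genes on chromosome 12 between Meg3 and Dio3 lay below the wild-type level as a group, and this group was chosen after its values were seen. The region is an imprinted domain whose maternal copy makes the long noncoding RNAs Meg3 and Rian and a large cluster of microRNAs, and its microRNAs are known to be abundant in resting muscle stem cells. RefSeq lists 61 microRNA genes there, 40 had a probe set, and 32 were bright enough to test. The mature products of the genes that passed against the other knockouts, and of Mir380, which had the lowest value, are shown with the seed, bases 2 to 8, in capitals (RefSeq, GRCm38.p6, plus strand). For Mir485 only the 3p product was in the source used here.
mmu-miR-380-5p: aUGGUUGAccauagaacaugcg
mmu-miR-380-3p: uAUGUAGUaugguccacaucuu
mmu-miR-134-5p: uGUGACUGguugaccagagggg
mmu-miR-134-3p: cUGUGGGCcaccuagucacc
mmu-miR-485-3p: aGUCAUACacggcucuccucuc
mmu-miR-377-5p: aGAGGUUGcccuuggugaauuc
mmu-miR-377-3p: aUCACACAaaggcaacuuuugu
The 32 genes gave 62 mature sequences with 62 different seeds, so no products in that source shared a seed. Products missing from it were not compared. An array probe set of such a gene does not tell the arms apart, nor the precursor from the mature form.

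All 32 of these microRNA genes lay below 0, where 43.7% of all genes did. In 22 of them both knockout arrays lay below every WT array, as they did in 11% of all genes. An unadjusted p under 0.05 was found for 16, all lower, where 1.75% of all genes were. The median difference was -0.59 and the range -1.98 to -0.16, and all 32 also lay below WT pool 1, with a median of -0.71. Mir485 read 7.94 and 8.28 on the TSC1 KO arrays and 9.25, 9.36 and 9.61 in the WT pools, a difference of -1.30 ± 0.19 (adjusted p = 0.118). Mir377 read 7.45 and 7.90 against 9.40, 8.85 and 9.34, a difference of -1.52 ± 0.25 (adjusted p = 0.127). Neither passed against WT, and the knockout arrays lay well below the WT pools in both. Mir380 read 6.01 and 6.14 against 8.03, 7.51 and 8.62, a difference of -1.98 ± 0.40, and Mir134 read 9.08 and 9.28 against 10.12, 9.97 and 10.16, a difference of -0.90 ± 0.20. Members of 1 transcribed cluster are not independent of one another.

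The Rptor KO pool lay on the opposite side of wild type for the same genes. The mean signal of the 32 genes was 7.44 and 7.55 on the TSC1 KO arrays, 8.30, 7.92 and 8.38 in the WT pools, 9.32 in Rptor KO and 8.12 in cMet KO. The median difference from WT was 1.18 in Rptor KO and -0.07 in cMet KO, and in WT CSC it was -0.70. Against the mean of the other knockout pools the TSC1 KO median was -1.13, 27 of the 32 had an unadjusted p under 0.05 and were lower, as 4.90% of all genes were, and 3 passed: Mir377 fell by 2.18 (adjusted p = 0.0345), Mir485 fell by 1.99 (adjusted p = 0.0226) and Mir134 fell by 1.64 (adjusted p = 0.0361). The height of the Rptor KO pool entered these values. The long transcripts of the domain were less separated. Rian read 8.47 and 8.60 against 9.0, 10.10 and 9.39, a difference of -0.96 ± 0.36, and Meg3 read 10.72 and 10.81 against 11.58, 10.86 and 11.95, a difference of -0.69 ± 0.40. Dlk1, the paternally expressed gene at the edge of the domain, read 8.05 and 7.88 against 9.19, 8.33 and 8.95, a difference of -0.86 ± 0.30, and 10.69 in Rptor KO.

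**Figure D5:**
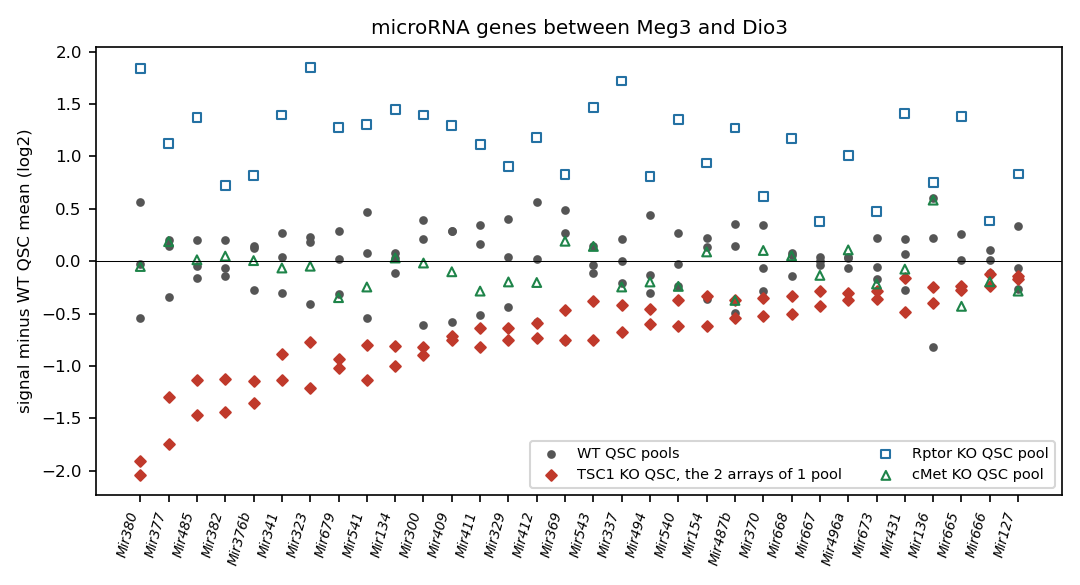
The signal of the 32 tested microRNA genes between Meg3 and Dio3 is shown as the distance from the WT QSC mean (log2) for the WT QSC pools (grey), the 2 TSC1 KO arrays (red), and the Rptor KO and cMet KO pools (open), in order of the TSC1 KO difference. The TSC1 KO arrays lie below 0 and the Rptor KO pool above 0 at every gene.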

How the data were processed

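The authors deposited log2 signals per probe set. The submitters' processing notes name RMA and the Affymetrix Expression Console. Versions, and whether all arrays were normalised together, were not stated. Of 35556 probe sets, 21789 had 1 gene symbol in the platform annotation, 1621 had several and 12146 were not listed there. Symbols were updated through RefSeq (21698 matched by Entrez ID), giving 19938 genes. The brightest probe set stood for each of 999 genes with several. Technical arrays were averaged per pool. Genes under the 30th percentile of the mean over pools (log2 6.45) were left out, which left 13956. A group-mean model over the 12 pools was fitted with limma 3.58.1 (R 4.3.3; lmFit, eBayes), tested two-sided with Benjamini-Hochberg adjustment over all genes and a threshold of 0.05. With 4 residual degrees of freedom the spread came from WT QSC and WT CSC pools, and the small number of pools limits the precision. The prior shared by all genes, towards which eBayes draws each gene's spread, had 5.01 degrees of freedom. The code was tested on simulated data. Genes named were the 10 with the smallest p in each direction (after those past the threshold; predicted genes, microRNAs and receptors of smell left out), pathway members by role and leading members of 46 gene lists; microRNA genes, Rian, Meg3, Dlk1 and the counterparts Cox8a and Cox6a2 were added after their values were seen. Members and lists were chosen with earlier results of these data known. Of 1169 list entries 85 had no match and are not analysed here. Technical array numbers of 1 pool carry no pairing between groups. Alternatives numbered 18, plus 1 added after seeing the data. Figures were drawn with matplotlib.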

Additional observations from a re-analysis of the deposited data

How the results depend on the processing

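Against WT QSC, 2 genes passed. The count was 6 after a further quantile normalization, 6 with the filter at the 50th percentile, 1 with arrays centred on their medians, 1 with no filter, 1 with the WT QSC and TSC1 KO QSC pools alone, and 2 with the mean of all probe sets; it was 10 with a trended, robust prior, 10 on first arrays and 1 on second arrays. Against the other knockouts, where 21 passed, the same choices gave 43, 39, 10 and 4, with no fit to the pair of groups, then 21, 54, 58 and 3. Counting arrays in place of pools gave 1459 and 3447 with every array as a replicate, 174 and 794 with the pool as a random block, and 166 and 783 with the technical array number as a replicate block added. These numbers name repeat arrays of a pool and pair no animals, and the replicate block lost neither Cox8b nor Ryr3. Leaving out 1 wild-type pool gave 1 to 231 genes and 1 to 237 genes. With WT pool 1 as the only WT QSC pool the counts were 2 and 1007. The cause of these shifts was not tested.

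Cox8b passed in all 19 alternatives. Ryr3 passed in 9, with adjusted p from 0.0585 to 0.352 in the other 10. Of 2402 repeats over the 127 named genes, 21 changed sign, all for genes that did not pass. With WT pool 1 as the only WT QSC pool, chosen after seeing the data, the differences were -0.079 for Depdc5, -0.20 for Fasn, -0.043 for Mtor, -0.26 for Myod1, -0.0075 for Pax7, -0.18 for Rptor, -0.019 for Rps29, -0.40 for Sesn2 and -0.070 for Tfe3, and the medians of 11 gene lists moved by more than the spread of the WT pools, those of sterol synthesis, lysosomal targets and myogenic genes among them. Centring the arrays moved 10 by that measure, that of ribosomal proteins to -0.14, and the median of all genes from 0.04 to 0.14. On first arrays Myod1 was at -0.050, Sesn2 at -0.012 and Tfeb at 0.055, and centring put Tfeb at 0.080. Leaving out 1 wild-type pool gave ranges of -0.011 to 0.64 for Ckm, -0.24 to 0.17 for Myod1, -0.48 to 0.062 for Pprc1, -0.30 to 0.039 for Rheb, -0.019 to 0.15 for Rps29, -0.033 to 0.30 for Rptor, -0.11 to 0.30 for Sesn2 and -0.080 to 0.049 for Tfeb.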

Other observations

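Clock genes were among those with larger values than the median gene. Of 17 clock genes tested, 5 were higher and 1 was lower in the TSC1 KO pool at an unadjusted p under 0.05, against 7.07% and 1.75% of all genes, and none passed over all genes (limma). Dbp, a clock output factor, read 9.87 and 9.85 on the TSC1 KO arrays and 9.07, 7.86 and 8.40 in the WT QSC pools, a difference of 1.42 ± 0.39 (adjusted p = 0.394). Bhlhe41 and Bhlhe40, repressors of the clock, had differences of 1.24 and 0.98, Tef, a relative of Dbp, of 0.54, and Arntl, the activator that peaks in the opposite phase to Dbp, of -0.62. Nr1d1, the gene of REV-ERBalpha, read 12.82 and 12.81 against 12.30, 10.86 and 12.21, so that WT pool 2 stood apart from the other wild-type pools. The time of day at which the muscles were taken was not given in the sources used here. Against WT pool 1 alone the median of the list was 0.02.

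Of 21 interferon response genes, 4 were higher and 1 was lower at an unadjusted p under 0.05, against 7.07% and 1.75% of all genes, with a median of 0.21 (0.05 against WT pool 1). Ifit2 was at 1.07 ± 0.23 (adjusted p = 0.291) and Ifit1 at 0.79 ± 0.26, while Oas1a was at -0.59 ± 0.19 and Oas2 at -0.35 ± 0.20. Cxcl10, a chemokine, read 11.06 and 10.96 against 10.15, 9.54 and 8.83, a difference of 1.51 ± 0.48. Immediate early and dissociation genes had a median of 0.31 over 36 genes against the WT mean and of 0.02 against WT pool 1, with Fos at 13.09 and 12.93 against 12.97, 12.14 and 11.99. Of 21 FoxO targets 6 were higher at an unadjusted p under 0.05 (7.07% of all genes were), among them Fbxo32, a ubiquitin ligase of muscle atrophy (0.82 ± 0.22), and their median against WT pool 1 was 0.02.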
